A study of Mus musculus with 10 samples.

Results

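The genes described here are the pore-forming and auxiliary subunits of voltage-gated sodium channels (*Scn*) and calcium channels (*Cacna1*, *Cacna2d* and *Cacnb*), the hyperpolarization-activated HCN channels (*Hcn*) and the transient receptor potential channels of the *Trpa*, *Trpc*, *Trpm* and *Trpv* groups. They were chosen by symbol alone, which gave 57 of the 48397 genes in the count table: 9 sodium channel alpha and 4 beta subunits, 10 calcium channel alpha1, 4 alpha2delta and 4 beta subunits, 4 HCN genes, and 1 *Trpa*, 7 *Trpc*, 8 *Trpm* and 6 *Trpv* genes. *Scn2a1*, the older symbol under which the table lists another sodium channel alpha subunit, fell outside the symbol rule and was counted among the partner genes. The cells were neurons picked by hand from the paraventricular hypothalamus (PVH) of male mice older than 7 weeks, born to a cross of Agrp-IRES-Cre with the Ai9 tdTomato reporter, and all cells belonged to this single condition. Before picking, slices were kept in pronase with TTX, a blocker of sodium channels, and the glutamate receptor blockers APV and DNQX, so no cells without this exposure were available for comparison. The labels describe the picked cells as tdTomato-positive, whereas the study's methods used the labelled AGRP axons to find the borders of the nucleus. The cells were profiled by Smart-SCRB, which counts unique molecular identifiers (UMIs) in a barcoded library per plate, and the 10 plates were the replicates.

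Sodium channel alpha subunits carry the upstroke of the action potential, and beta subunits set how the alpha subunits gate and where they sit in the membrane. High-voltage-activated calcium channels couple spikes to transmitter and peptide release, whereas T-type channels (*Cacna1g*, *Cacna1h* and *Cacna1i*) open near rest and can drive bursts. HCN channels pass a depolarizing current on hyperpolarization, and TRP channels respond to receptor signalling, calcium, temperature or osmotic stimuli. Magnocellular PVH neurons release oxytocin or vasopressin from the pituitary and fire in bursts or phases, and other PVH neurons regulate the anterior pituitary or project within the brain.

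The promoters of *Trpc5*, *Trpc6* and *Cacna1i* are shown because these genes differed among the cell clusters described below and were at or near 0 in some of them. Each run spans 250 bases before to 50 bases from the annotated start, 5′ to 3′ on the gene's strand, from RefSeq on GRCm38.p6. The *Trpc5* window lies on chrX:144688131-144688430 (minus strand), that of *Trpc6* on chr9:8543892-8544191 (plus strand) and that of *Cacna1i* on chr15:80286988-80287287 (plus strand). Capitals mark ACGTG, the core bound by dimers of basic helix-loop-helix PAS factors such as SIM1, which specifies PVH neurons. It was searched on both strands and does not overlap the other motifs searched.
Trpc5 promoter: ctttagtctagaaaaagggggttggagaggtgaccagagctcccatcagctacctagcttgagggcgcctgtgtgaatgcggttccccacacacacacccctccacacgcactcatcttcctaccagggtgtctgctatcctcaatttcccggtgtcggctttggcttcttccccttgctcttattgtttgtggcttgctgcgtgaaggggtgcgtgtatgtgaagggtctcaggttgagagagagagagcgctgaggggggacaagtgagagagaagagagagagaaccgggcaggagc
Trpc6 promoter: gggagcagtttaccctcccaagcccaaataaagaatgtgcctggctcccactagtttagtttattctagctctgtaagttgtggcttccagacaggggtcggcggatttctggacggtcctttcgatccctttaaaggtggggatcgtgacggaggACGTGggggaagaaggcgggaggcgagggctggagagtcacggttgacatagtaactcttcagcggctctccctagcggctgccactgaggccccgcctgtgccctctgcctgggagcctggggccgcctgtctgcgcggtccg
Cacna1i promoter: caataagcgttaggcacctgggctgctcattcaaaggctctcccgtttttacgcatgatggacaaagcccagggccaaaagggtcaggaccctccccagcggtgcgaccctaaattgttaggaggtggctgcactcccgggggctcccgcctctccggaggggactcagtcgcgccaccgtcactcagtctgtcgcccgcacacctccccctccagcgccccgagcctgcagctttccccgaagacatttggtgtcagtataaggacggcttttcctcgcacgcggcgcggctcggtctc
Promoters were matched for 44 of the 57 channel genes, 57 windows in all. ACGTG occurred in 8 of these 57 windows and in 19.6% of all 32851 windows. TATAAA on the gene's strand occurred in 4 of the 57 and in 8.32% of all, and TAATTA on either strand in 1 of the 57 and in 5.29% of all. None of the 3 windows shown held TATAAA or TAATTA. These matches are descriptions of letters and were not tied to any level.

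The table of cells kept by the study after quality control held 706 cells, 43 to 87 per plate, with 50646 to 1078101 UMIs per cell (median 128671.5). All 96 well positions recurred on the 10 plates, and cells were told apart by plate and well. The study divided the cells into 15 clusters, of which 12 with 664 cells are PVH clusters and 3 (5, 6 and 11, with 42 cells) lie outside the nucleus. *Sim1*, which defines PVH neurons, was detected in 32.0% to 83.3% of the cells of the PVH clusters, and summed glia and endothelium markers reached at most 13.4 CPM (counts per the usual scaling of a library total, here over the summed UMIs of a cluster's cells) in any of the 15 clusters. Plates carry the prefixes Q (4 plates), AL (2) and JM (4), which the study's table lists as batches. Clusters 3, 4, 12 and 13 had no sum of at least 3 cells on a Q plate, and cluster 8 had none elsewhere. For these clusters the cluster and the batch cannot be told apart except through the clusters that share their plates.

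Channel genes took 0.177% of all UMIs in the 706 cells. A cell held a median of 244.5 UMIs of the 57 genes (31 to 1686) and a median of 15 detected genes, detection being at least 1 UMI. The 92 wells outside this table with under 3000 UMIs were taken as wells without a cell by their low totals alone. Their mean was 0.272 UMIs of the 57 genes, and 19 wells held any. The number detected varied between clusters, from a median of 10 genes in cluster 10 to 18 in cluster 12. After each cell was thinned to 63046 UMIs, which left out 71 shallower cells (1 of them on a Q plate), these medians were 9 and 17. Cluster 10 had 41 of its 62 cells on Q plates and cluster 12 had 0 of 35. These medians pool all plates, so the cluster and the batch are mixed in them. Both clusters had cells on plates AL5, JM6 and JM8, but the number detected was not compared within plates.

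Of the 57 genes, 29 were detected in over 40% of the cells of at least 1 PVH cluster, and 7 of these in all 12. Those 7 were *Scn3a*, *Scn9a*, *Scn3b*, *Cacna1a*, *Cacna1b*, *Cacna2d1* and *Cacnb3*, which were chosen for naming after their values were seen and together make up a sodium channel and high-voltage calcium channels with their auxiliary subunits. In contrast, 12 genes were detected in under 5% of the cells of every PVH cluster. Of these, *Scn10a*, *Trpc2*, *Trpm5* and *Trpv5* had no UMI in the 664 PVH cells, where 3 counts would be 0.452% of cells with a UMI and the exact 95% interval reaches 0.554%. This limits cells with a UMI, not cells that express the gene. The other 8 were found in 2 to 10 of these cells. With at least 3 UMIs asked for detection, 20 genes were above 40% somewhere and 14 below 5% everywhere.

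**Figure D1:**
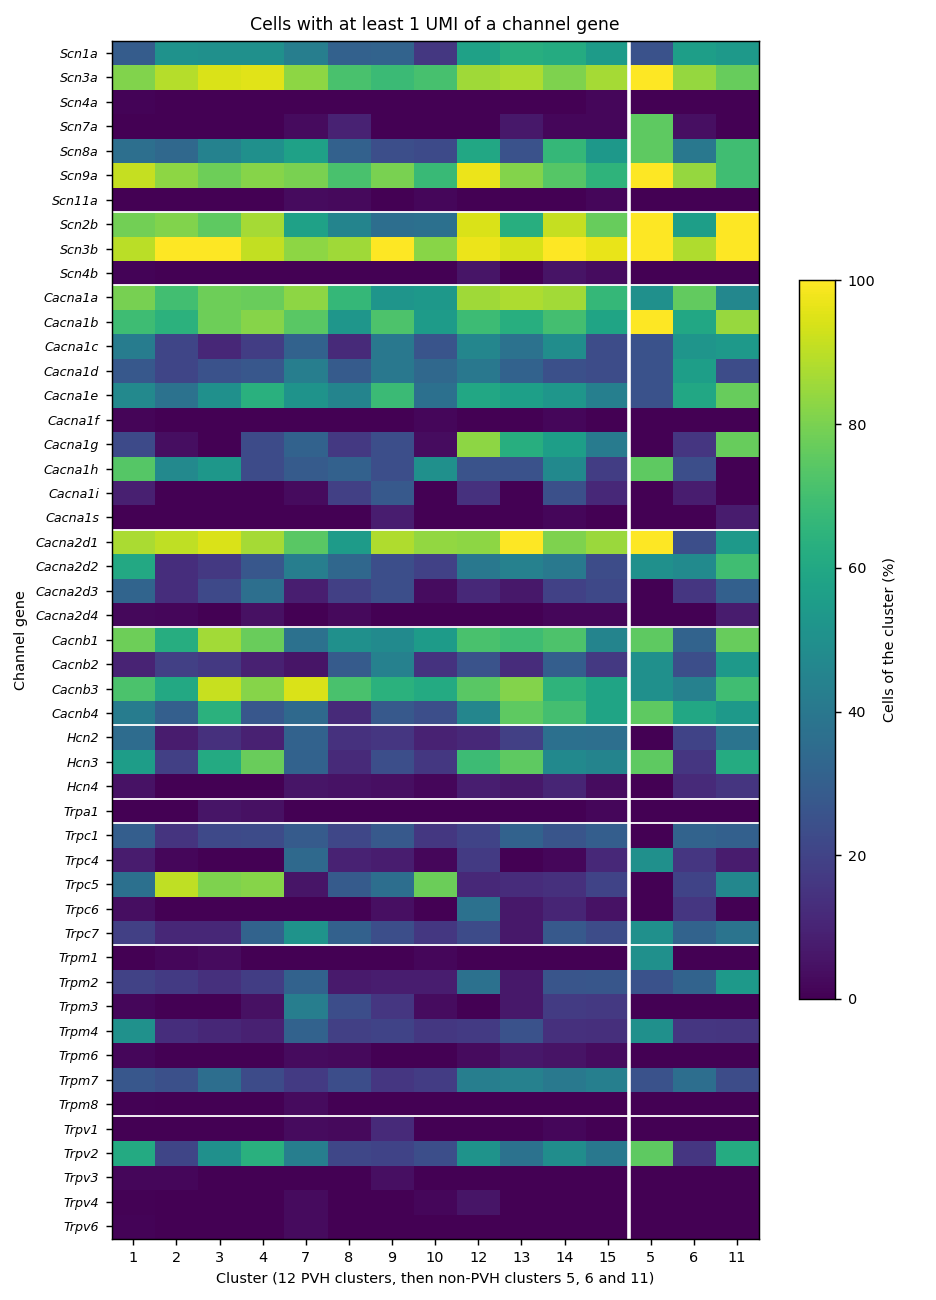
Share of cells with at least 1 UMI (color, percent) of 49 channel genes found in PVH cells, for the 12 PVH clusters and, right of the white line, clusters 5, 6 and 11. White horizontal lines divide gene families. *Scn3b* was above 80% in each PVH cluster, whereas *Trpc5* ranged from 5.71% in cluster 7 to 90.6% in cluster 2.

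Whether channel genes differed between clusters was asked of the UMI sums of each cluster on each plate (73 sums of at least 3 cells), with edgeR's quasi-likelihood test, plate as a block and Benjamini-Hochberg adjustment over all 13082 genes that passed the filter on low counts. The clusters were drawn by the study from the expression of these same cells, so a p-value here measures how a difference recurred over plates and is not independent evidence of cell types. The filter kept 40 of the 57 channel genes. The 17 that it left out comprised 3 sodium channel alpha subunits, 1 beta subunit, 2 alpha1 and 1 alpha2delta subunit, and 10 TRP genes.

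Among the 12 PVH clusters, 15 of the 40 tested channel genes differed (37.5%), beside 21.2% of all tested genes. By adjusted p, 14 of them were *Scn3b* (2.44e-12), *Trpc5* (7.01e-10), *Trpm3* (1.12e-05), *Cacna1g* (4.25e-05), *Cacna2d1* (9.07e-05), *Cacna1i* (1.23e-04), *Trpc4* (0.00108), *Trpc6* (0.00414), *Scn2b* (0.0101), *Scn7a* (0.0249), *Cacna1c* (0.0414), *Cacna2d3* (0.0443), *Trpm4* (0.0493) and *Trpm6* (0.0496), all from edgeR. No *Cacnb* gene and not *Trpv2*, the tested *Trpv* gene, was among them. Without plate AL5 the count was 9, and on the Q plates alone it was 2 (*Trpc5* and *Cacna2d1*), whereas *Trpc5* passed under each of its 18 alternative settings. *Cacna1c*, *Cacna2d3*, *Trpm4* and *Trpm6* passed in a minority of theirs, and *Scn7a* passed in 8, failed in 5 and had no value in the rest.

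Sodium channel alpha subunits fell into frequent and rare genes. *Scn3a* and *Scn9a* were detected in 81.8% and 81.3% of PVH cells, *Scn8a* in 41.3% and *Scn1a* in 39.8%, and none of these 4 passed the test among clusters. The alpha subunit *Scn2a1*, counted among the partner genes, was detected in 91.9% of PVH cells. It did differ among clusters, as given below with the partners. *Scn1a*, *Scn3a*, *Scn9a* and *Scn7a* are neighbours on chromosome 2 (chr2:65457118-66784914 from the start of *Scn3a* to the end of *Scn7a*, GRCm38), yet *Scn7a*, which encodes a sodium sensor of the brain rather than a spike-generating channel, was found in 8 of 664 PVH cells. Its call among clusters rested on few cells: sums above 0 came from 1 of 8 plates in cluster 7, 2 of 4 in cluster 8, 1 of 3 in cluster 13, and 1 of 8 each in clusters 14 and 15. Outside the PVH it was found in 3 of the 4 cells of cluster 5 (75.0%, 95% exact interval 19.4% to 99.4%).

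Of the beta subunits, *Scn3b* (chr9:40269217-40291618, plus strand) gave the firmest difference of all channel genes, although it was detected in 82.3% to 100% of the cells of every PVH cluster. What varied was its level. Cluster 1 had 164 CPM on the lowest plate, a median of 209 and 289 on the highest, whereas cluster 12 had 649, 1132 and 1279 CPM. The plates of these clusters did not overlap. Clusters 8, 14 and 15 were also high, at 897 ± 306 (SD, n = 4), 881 ± 189 (n = 8) and 773 ± 148 CPM (n = 8), while clusters 4, 7 and 13 had 292 ± 53.7 (n = 5), 302 ± 190 (n = 8) and 276 ± 49.2 CPM (n = 3).

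Each cluster was then set against the mean of the other 11 on the log2 scale. *Scn3b* was higher in cluster 12 by 1.26 ± 0.20 (SE, adjusted p = 1.09e-05), in cluster 14 by 0.89 ± 0.17 (adjusted p = 2.00e-04) and in cluster 15 by 0.66 ± 0.18 (adjusted p = 0.0141), and was lower on 10 of 10 plates in cluster 1 (-1.01 ± 0.18, adjusted p = 1.67e-05) and on 7 of 8 in cluster 7 (-0.82 ± 0.20, adjusted p = 0.00447). *Scn2b*, a beta subunit that binds the alpha subunit covalently, was higher in cluster 14 (1.36 ± 0.37, adjusted p = 0.0137), where the plates ran from 73.5 to 250.5 CPM with a median of 163. In cluster 9 its 4 plates had 0, 12.3, 22.3 and 73.7 CPM. *Scn4b* lies beside *Scn2b* on chromosome 9 (chr9:45138395-45154152 and chr9:45117782-45130070) and was found in 9 PVH cells against 475 for *Scn2b*.

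**Figure D2:**
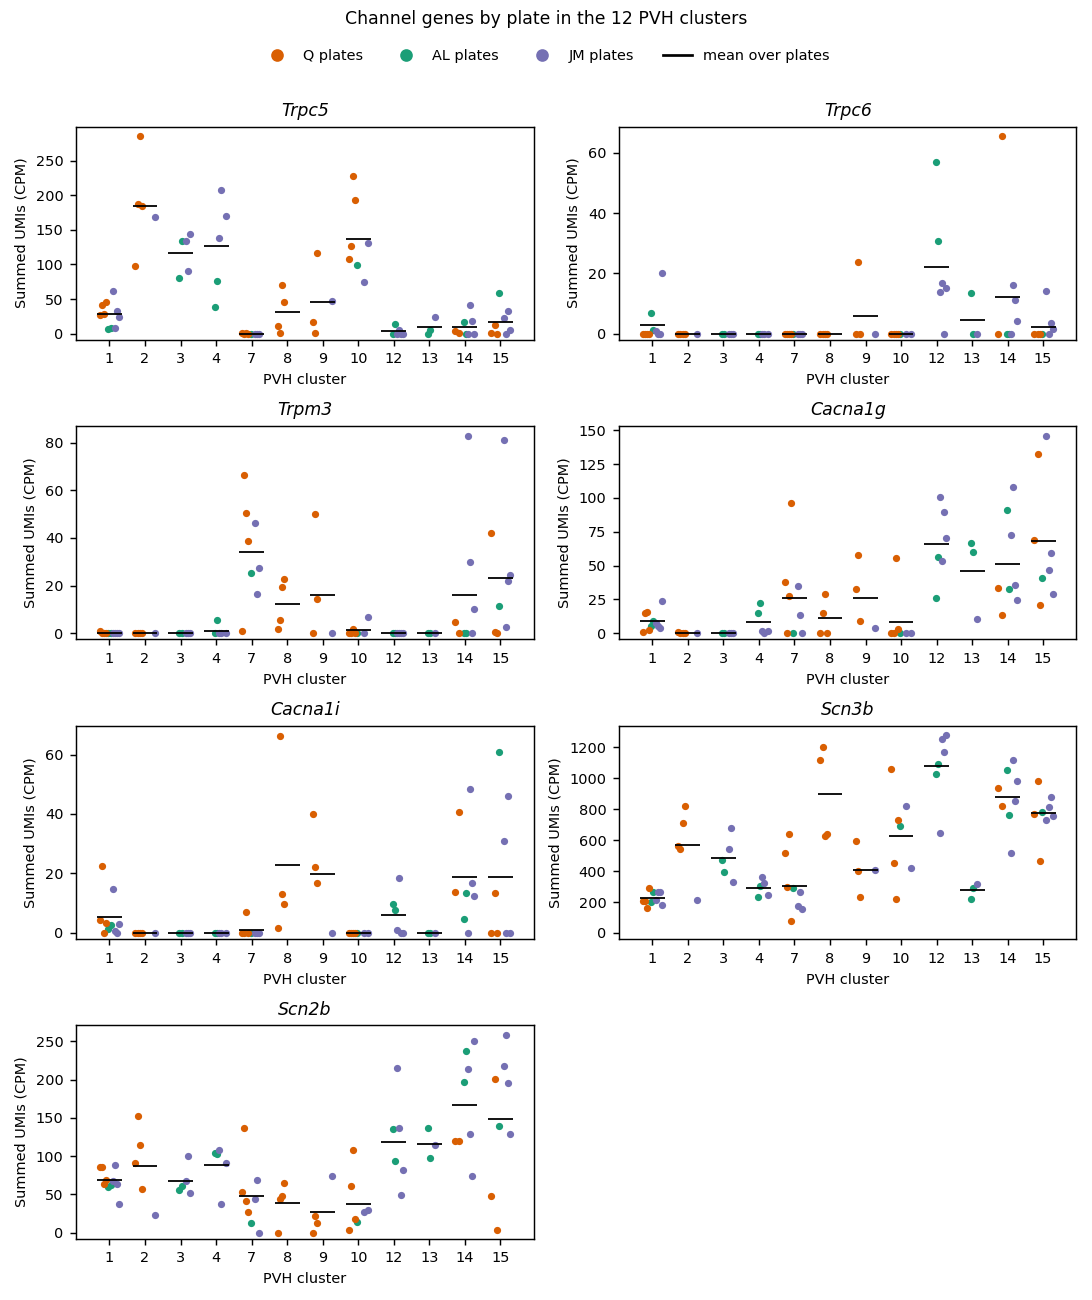
UMIs summed over the cells of a plate and cluster, as CPM (vertical axis, linear), for 7 channel genes in the 12 PVH clusters (horizontal axis), 1 point per plate with at least 3 cells, colored by plate prefix, and bars at the mean over plates. *Trpc5* stood at 75.3 CPM or more on all 7 plates of cluster 10.

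Of the high-voltage-activated alpha1 subunits, *Cacna1a*, *Cacna1b* and *Cacna1e* were the most often detected. *Cacna1a* (P/Q-type) was detected in 74.4% of PVH cells and *Cacna1b* (N-type) in 66.4%, both carrying the calcium entry that triggers release, and *Cacna1e* (R-type) in 48.0%. None of the 3 passed the test among clusters. Of the L-type genes, *Cacna1d* did not pass and *Cacna1c* did (adjusted p = 0.0414), with means from 3.76 ± 2.85 CPM in cluster 8 (SD, n = 4) to 61.3 ± 58.0 in cluster 14 (n = 8), whose lowest plate had 7.02 CPM and whose highest had 190. *Cacna1f* of the retina and *Cacna1s* of skeletal muscle were found in 5 and 3 PVH cells.

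Of the T-type genes *Cacna1g* and *Cacna1i* passed the test among clusters and *Cacna1h* did not (adjusted p = 0.0960). *Cacna1g* (chr11:94408391-94474198, minus strand) was detected in 82.9% of the cells of cluster 12, 62.5% of cluster 13, 56.1% of cluster 14 and 41.7% of cluster 15. In cluster 3 it was found in 0 of 36 cells, where 3 counts would be 8.33% of cells with a UMI and the exact 95% interval reaches 9.74%. Its sums ranged from 26.0 to 100.3 CPM (median 63.4) on the 6 plates of cluster 12, from 13.6 to 108 (median 34.6) on the 8 of cluster 14 and from 21.2 to 146 (median 53.3) on the 8 of cluster 15, and were 0 on all 5 plates of cluster 3. Against the summed cells of cluster 3, with a floor of 3 UMIs over that cluster, the summed cells of cluster 12 were at least 92.2-fold higher.

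*Cacna1g* was higher than the mean of the other clusters in cluster 12 by 3.36 ± 0.76 on the log2 scale (SE, edgeR adjusted p = 0.00482), in cluster 14 by 2.97 ± 0.67 (0.00191) and in cluster 15 by 3.01 ± 0.65 (0.00159). It was lower in cluster 3 (adjusted p = 0.0490). *Cacna1h* had a different order: it was detected in 73.8% of the cells of cluster 1 and 18.3% to 52.8% of the cells of the other PVH clusters, and was higher in cluster 1 by 1.78 ± 0.57 (adjusted p = 0.0269), with 11.1, 32.2 and 51.9 CPM on the lowest, median and highest of 10 plates. *Cacna1i* was rarer, in 24.6% of the cells of cluster 14 and 28.0% of cluster 9, and had no UMI in clusters 2, 3, 4, 10 and 13. It was higher in clusters 14 (4.43 ± 0.87, adjusted p = 3.52e-04) and 15 (4.19 ± 1.03, adjusted p = 0.00789), on 6 of 8 and 4 of 8 plates. In cluster 15 it was detected in 11.7% of cells, below clusters 8 (19.0%) and 12 (14.3%). Against the sum of the other clusters the differences were 1.70 in cluster 14 (adjusted p = 0.366) and 0.18 in cluster 15 (adjusted p = 0.968).

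Cells with several T-type genes were most frequent in cluster 14, where 23 of 57 cells (40.4%) had at least 2 of the 3 genes. There were none among the 36 cells of cluster 3, which follows from the absence of *Cacna1g* and *Cacna1i* UMIs there. In cluster 1 the commonest pattern was *Cacna1h* without *Cacna1g* (125 of 221 cells), whereas in cluster 12 it was *Cacna1g* without *Cacna1h* (23 of 35). Both clusters contain oxytocin cells. In the fit between clusters 12 and 1 neither gene was called, *Scn3b* being the 1 call among 40 genes. Cluster 1 had 107 of its 221 cells on Q plates and a median of 183836 UMIs per cell, whereas cluster 12 had 0 of 35 and 85124 UMIs. The counts of T-type genes per cell describe detection, and a gene without a UMI may still have been expressed.

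**Figure D3:**
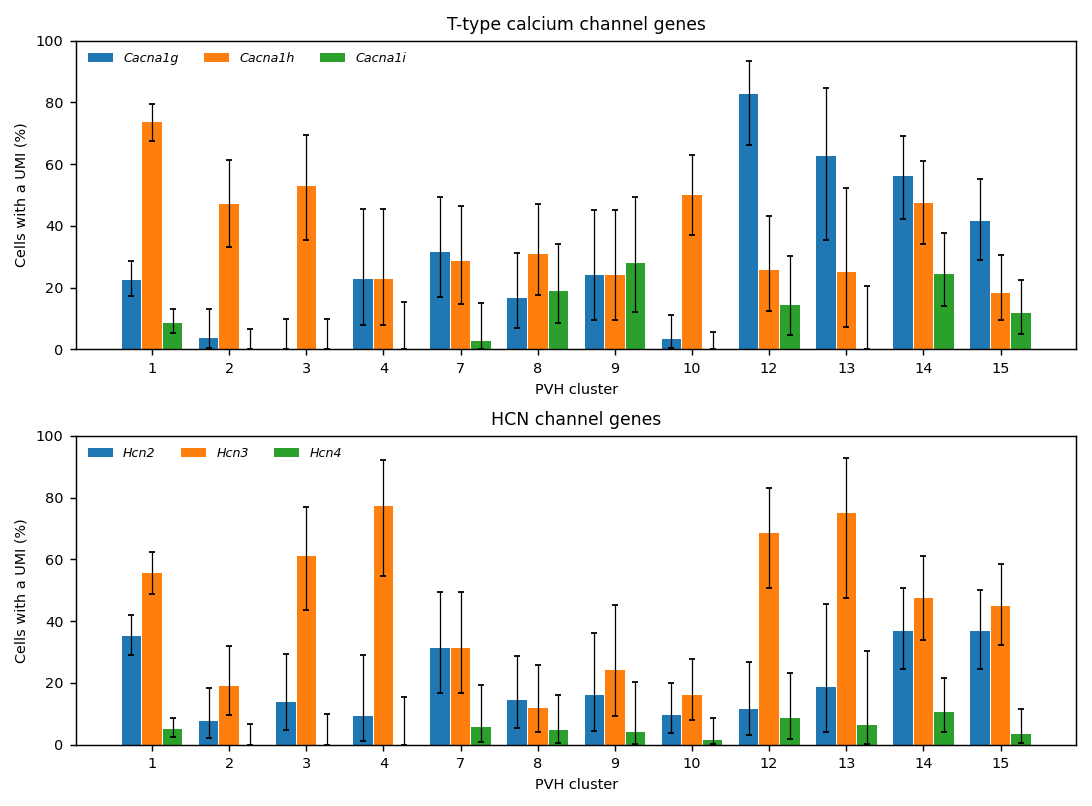
Share of cells with at least 1 UMI (vertical axis, percent, with exact 95% intervals for counting error) of the T-type calcium channel genes (upper panel) and HCN genes (lower panel) in the 12 PVH clusters. *Cacna1h* led in cluster 1 at 73.8%, *Cacna1g* in cluster 12 at 82.9%, and *Hcn3* was highest in cluster 4 at 77.3%.

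Among auxiliary calcium channel subunits, *Cacna2d1*, the alpha2delta subunit that binds gabapentin, was detected in 84.2% of PVH cells. It was higher in cluster 10 (0.98 ± 0.25 log2, adjusted p = 0.0100), where 7 plates ranged from 174 to 458 CPM with a median of 334, and lower in cluster 7 on 8 of 8 plates (adjusted p = 0.00198), where 8 plates ranged from 24.2 to 160 CPM with a median of 80.2. Cluster 8, the other somatostatin cluster, had 63.1, 77.1, 77.4 and 86.0 CPM. *Cacna2d3* passed the test among clusters (adjusted p = 0.0443), with means from 0.893 ± 1.55 CPM in cluster 13 (SD, n = 3) to 35.7 ± 52.0 in cluster 15 (n = 8). The mean of cluster 15 includes 148 CPM on plate Q8, a sum of 3 cells. Its median was 13.9 CPM, below the 32.5 of cluster 9 (n = 4). *Cacnb3*, a cytoplasmic beta subunit that carries the pore to the membrane, was higher in cluster 7 (1.27 ± 0.33, adjusted p = 0.00938), with 58.3 to 280 CPM on 8 plates, although it missed the threshold among all 12 clusters (adjusted p = 0.0519). When only sums of at least 5 cells were kept, the *Cacnb3* value in cluster 7 was -0.043.

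*Hcn2*, *Hcn3* and *Hcn4*, whose channels contribute to pacemaking and to the resting conductance, did not pass the test among clusters, with adjusted p = 0.647, 0.526 and 0.250 with edgeR, and none of these 3 did at an unadjusted p under 0.05 or with DESeq2. *Hcn3* was detected in 44.3% of PVH cells and in up to 77.3% of a cluster (cluster 4). *Hcn2* reached 36.8% at most (cluster 14) and *Hcn4*, the HCN channel of the sinoatrial node, 10.5% (cluster 14).

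*Trpc5* (chrX:144381671-144688180, minus strand), a receptor-operated cation channel, gave the firmest difference after *Scn3b*. It was detected in 90.6% of the cells of cluster 2, 80.6% of cluster 3, 81.8% of cluster 4 and 77.4% of cluster 10, in 37.1% of cluster 1, and in 5.71% of cluster 7. The thinned shares were 80.0%, 73.3%, 77.8%, 69.2%, 31.5% and 0%. Clusters 2, 3 and 4 express vasopressin and cluster 10 corticotropin-releasing hormone.

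On the plates of cluster 2 *Trpc5* had 98.4, 169, 185, 188 and 285 CPM. Cluster 3 had 79.7, 90.6, 133, 134 and 145 CPM, cluster 4 had 38.3, 76.8, 139, 170 and 208, and cluster 10 ranged from 75.3 to 228 with a median of 127. Cluster 1 lay lower, at 6.95 to 62.3 CPM over 10 plates, and cluster 7 lowest, at 0 to 0.864 over 8. Cluster 7 overlapped with none of these 5 clusters, but it did with others. *Trpc5* ranged from 0 to 13.8 CPM in cluster 12 (median 0, n = 6) and from 0 to 24.2 in cluster 13 (median 5.44, n = 3). It ranged from 0 to 41.4 CPM in cluster 14 (median 2.58, n = 8) and from 0 to 59.1 in cluster 15 (median 9.02, n = 8).

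*Trpc5* was higher than the mean of the other clusters for cluster 2 by 3.63 ± 0.63 (SE, log2, adjusted p = 5.60e-05), for cluster 3 by 2.44 ± 0.64 (0.0223), for cluster 4 by 2.62 ± 0.64 (0.0152) and for cluster 10 by 2.93 ± 0.53 (9.39e-05), and lower in cluster 7 by the fitted value of -6.33 ± 1.06 (9.09e-06). *Trpc6*, which forms channels gated by diacylglycerol, was found in 37.1% of the cells of cluster 12 and had no UMI in clusters 2, 3, 4, 7, 8 and 10. It was above 0 on 5 of the 6 plates of cluster 12 (median 16.1, highest 56.9 CPM), at least 61.8-fold higher over the summed cells than in cluster 10 with its floor of 3 UMIs. The fitted difference was 5.35 ± 1.25 in cluster 12 (adjusted p = 0.00862) and 4.84 ± 1.20 in cluster 14 (adjusted p = 0.00719), where 4 of 8 plates were at 0.

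*Trpc4*, which can share channels with *Trpc5*, was found in 34.3% of the cells of cluster 7, the cluster with the lowest *Trpc5*, and was above 0 on 6 of its 8 plates (highest 31.9 CPM). It was higher there by 4.21 ± 0.93 (adjusted p = 0.00137). *Trpc1* and *Trpc7* were found in 25.3% and 21.8% of PVH cells, *Trpc7* in 51.4% of cluster 7, and did not pass.

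*Trpm3* (chr19:22139046-22995410, plus strand), which is opened by heat and by pregnenolone sulfate, was most often detected in cluster 7. Among its cells 42.9% held a UMI, and all 8 plates were above 0, from 0.864 to 66.6 CPM with a median of 33.0. In cluster 8, the other somatostatin cluster, the 4 plates had 1.80, 5.77, 19.5 and 22.9 CPM. Cluster 15 was above 0 on 7 of 8 plates, with a median of 16.8 and 81.2 CPM on the highest. Cluster 9 was above 0 on 2 of 4 plates and reached 50.2 CPM. Clusters 2, 3, 12 and 13 had no *Trpm3* UMI in the sums, and over the summed cells cluster 7 was at least 163-fold above cluster 2. The fitted difference was 5.41 ± 0.84 in cluster 7 (adjusted p = 3.07e-06), 4.21 ± 0.92 in cluster 15 (0.00198) and 2.99 ± 0.97 in cluster 14 (0.0482). In cluster 14 it was at 0 on 4 of 8 plates, with a median of 2.36 CPM and 82.8 CPM on plate JM5, and the difference was -0.18 against the sum of the other clusters.

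*Trpm4*, a calcium-activated channel for monovalent cations, was found in 50.7% of the cells of cluster 1 and in 9.09% to 31.4% of the cells of the other PVH clusters. The 10 plates of cluster 1 ran from 18.1 to 60.9 CPM with a median of 30.9, and the difference was 2.68 ± 0.69 (adjusted p = 0.00450). Its relative *Trpm5* had no UMI in PVH cells. *Trpm6*, a channel kinase of magnesium transport, was found in 13 PVH cells, so that its calls in cluster 1 (adjusted p = 0.0269) and cluster 14 (adjusted p = 0.0180) rest on 4 of 10 and 3 of 8 plates with any UMI. *Trpm7* and *Trpm2* were found in 29.1% and 19.3% of PVH cells and did not pass the test among clusters, and *Trpm1* and *Trpm8* in 3 and 2 cells.

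Of the *Trpv* genes, *Trpv2* was frequent, in 44.9% of PVH cells and 20.0% to 63.6% of the cells of each PVH cluster, and did not pass the test (adjusted p = 0.948). *Trpv1*, the capsaicin receptor, was found in 6 of 664 PVH cells (0.904%, exact 95% interval 0.332% to 1.96%), 3 of them among the 25 cells of cluster 9. *Trpv4*, an osmotically sensitive channel, was found in 5 (0.753%, 0.245% to 1.75%). *Trpv3*, *Trpv6* and *Trpa1* were found in 6, 3 and 4 PVH cells.

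The contrasts of 1 cluster with the others gave 32 calls for 13 channel genes, 27 higher and 5 lower. Since the contrast averages clusters on a log scale, a gene that is absent from several clusters can be called higher in a cluster whose level is modest. This applied to *Trpc4* and *Cacna1i* in cluster 1, called higher there (adjusted p = 0.0191 and 0.0192), although their mean CPM there (2.12 and 5.27) lay below the mean of the other clusters' means (4.70 and 7.93). Against the sum of the other clusters 14 of the 30 calls that could be tested kept their direction and passed. These were *Trpc5* in clusters 2, 3, 4, 7 and 10, *Scn3b* in 1, 12 and 14, *Cacna2d1* in 7 and 10, *Cacna1h* and *Trpm4* in 1, *Cacna1g* in 3, and *Cacnb3* in 7. The calls of *Trpc4*, *Trpc6*, *Trpm3* and *Cacna1i*, and those of *Cacna1g* as higher, were among those that did not pass in that form.

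By cluster, the number called higher was 5 of 40 in cluster 1 (11.1% of all tested genes were called higher there), 1 in cluster 2 (1.9%), 1 for cluster 3 (1.32%) and 1 for cluster 4 (0.864%). It was 3 in cluster 7 (3.17%), 2 for cluster 10 (2.77%), 3 for cluster 12 (1.93%), 7 for cluster 14 (4.82%) and 4 for cluster 15 (2.96%). Called lower were 1 of 40 in cluster 1 (0.634% of all), 1 in cluster 3 (0.321%) and 3 in cluster 7 (1.88%). The median log2 difference over all tested genes was 0.42 in cluster 1, 0.18 in cluster 14 and 0.12 in cluster 15, and that over the 40 channel genes was 0.22, 0.52 and 0.55. In clusters 8, 9 and 13 no channel gene passed with edgeR, beside 0.711%, 2.82% and 0.527% of all genes in either direction. At an unadjusted p under 0.05 the counts there were 8, 7 and 6, and DESeq2 called 2, 2 and 5.

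Clusters 1 to 4, which the study calls magnocellular, were compared with the other 8 PVH clusters. Of 40 channel genes 2 were higher, among them *Trpc5* (3.24 ± 0.42 log2, SE, adjusted p = 3.90e-09), beside 7.91% of all genes. Lower were *Cacna1g* (-4.18 ± 0.75, adjusted p = 1.53e-05) and *Scn3b* (-0.48 ± 0.13, adjusted p = 0.00655), beside 2.71% of all genes. The median over all tested genes was 0.15.

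As means of the cluster sums on a plate, *Trpc5* had 41.7, 108 and 157 CPM (lowest, median and highest of 10 plates) in clusters 1 to 4 and 5.60, 26.7 and 71.6 CPM in the others, and was higher on 10 of 10 plates. The 4 clusters were not alike in *Trpc5*. Cluster 1, with 221 cells, had a mean of 28.7 ± 18.0 CPM (SD, n = 10), whereas clusters 2, 3 and 4 had means of 185, 116 and 126. Cluster 10, among the others, had 137 ± 54.4 CPM (n = 7). *Cacna1g* had 0.828, 5.68 and 10.5 CPM against 18.3, 38.2 and 88.5, with no overlap of these means and lower on 10 of 10 plates. Single clusters did overlap in *Cacna1g*. It was detected in 22.6%, 3.77%, 0% and 22.7% of the cells of clusters 1, 2, 3 and 4. Among the others it was in 3.23% of cluster 10 and 16.7% of cluster 8, and in 24.0% (cluster 9) to 82.9% (cluster 12) of the rest. *Scn3b* had 243, 375 and 556 CPM against 479, 697 and 832 and was lower on 9 of 10 plates.

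The *Scn3b* value was -0.04 (adjusted p = 1.00) when cluster 12 was counted with clusters 1 to 4, and its call was lost without plate JM8 (-0.37, adjusted p = 0.0914). The *Cacna1g* call was lost on the Q plates alone (-3.81, adjusted p = 0.0742) and on the AL and JM plates together (-2.72, adjusted p = 1.00), whereas *Trpc5* passed in both of these fits. The AL and JM plates were not fitted apart. For 7 further genes the contrast had no usable estimate, since clusters on each side held no UMI: *Scn7a*, *Cacna1i*, *Hcn4*, *Trpc4*, *Trpc6*, *Trpm3* and *Trpm6*. Among them *Cacna1i* was lower in clusters 1 to 4 on 10 of 10 plates (2.48 ± 3.77 against 10.6 ± 6.14 CPM, SD, n = 10) and *Trpm3* on 9 of 10 (0.252 ± 0.625 against 15.6 ± 15.3), values given without a test.

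**Figure D4:**
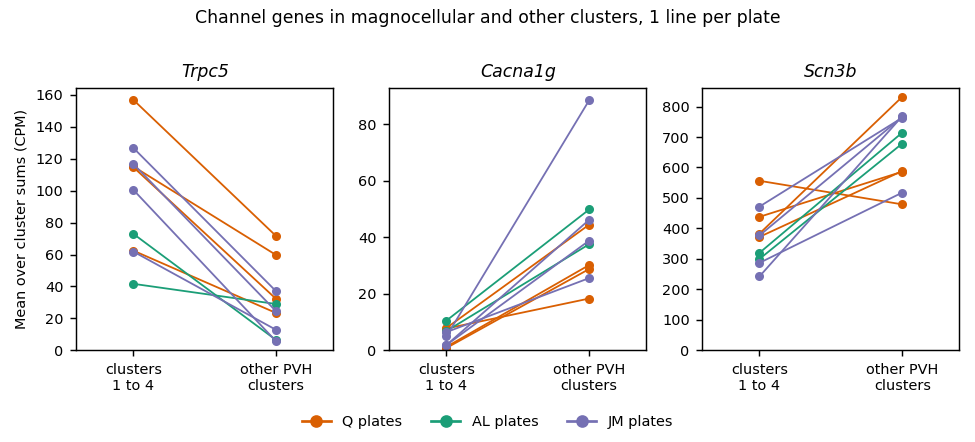
Mean CPM over the cluster sums of a plate (vertical axis, linear, from 0) in clusters 1 to 4 and in the other PVH clusters for 3 channel genes called in that contrast, 1 line per plate, colored by prefix. All 10 lines fall for *Trpc5* and all 10 rise for *Cacna1g*, while 9 of 10 rise for *Scn3b*.

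Clusters that share a neuropeptide were compared to see whether channel genes separate them. Between the oxytocin clusters 12 and 1, *Scn3b* was higher in cluster 12 by 2.09 ± 0.25 (adjusted p = 3.97e-09), the 1 call among 40 genes, beside 0.734% of all genes. Between the somatostatin clusters, *Scn3b* (1.49 ± 0.29, adjusted p = 0.00420) and *Trpc5* (6.15 ± 1.24, adjusted p = 0.00427) were higher in cluster 8 than in cluster 7, beside 0.252% of all genes. *Trpc5* had 0.721, 10.8, 45.9 and 69.9 CPM on the 4 plates of cluster 8 against a highest value of 0.864 in cluster 7, so that 1 plate overlapped, and its call was lost without plate Q7 (adjusted p = 0.0945). The *Scn3b* call was lost without plate Q6 (adjusted p = 0.0916).

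Between clusters 14 and 10, which express *Crh*, *Scn2b* (2.43 ± 0.62, adjusted p = 0.0101), *Cacna1g* (4.06 ± 1.27, adjusted p = 0.0486) and *Cacna1i* (adjusted p = 0.00851) were higher in cluster 14, beside 2.57% of all genes, and *Trpc5* was lower (-4.24 ± 0.92, adjusted p = 0.00148), beside 1.8%. *Cacna1i* had no UMI in cluster 10 against 16.0 CPM over the summed cells of cluster 14, where a floor of 3 UMIs over cluster 10 comes to 0.400 CPM. *Trpc5* ranged from 0 to 41.4 CPM in cluster 14 and from 75.3 to 228 in cluster 10, without overlap. The *Scn2b* call was lost without plate AL5 (adjusted p = 0.0801), and that of *Cacna1g* kept its side of the threshold in 4 of 17 alternatives.

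No channel gene passed with edgeR between the vasopressin clusters 4 and 3, where 0% of all genes did, or between clusters 15 and 9, which express *Trh*, beside 0.749% of all genes. At an unadjusted p under 0.05 there were 1 (*Cacna1g*) and 4 (*Trpm7*, *Trpm2*, *Scn3b* and *Scn2b*). DESeq2 called 0 and 5.

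Genes listed as partners of these channels were counted in the same fits. Of 23 tested among 30 listed partners, 8 differed among the 12 clusters (34.8%, beside the 21.2% of all genes given above). They were *Fgf11* and *Fgf13*, which bind sodium channels, *Scn2a1*, the calcium channel partner *Stac2*, and *Cacng2* and *Cacng5*, listed by their family name (calcium channel gamma). The others were *Pex5l*, which traffics HCN channels, and *Fam155a* of the sodium leak channel. In clusters 1 to 4 *Stac2* (4.54 ± 0.67, adjusted p = 3.02e-07) and *Fgf11* (2.80 ± 0.83, adjusted p = 0.0150) were higher, and *Fam155a* (-1.28 ± 0.32, adjusted p = 0.00234) and *Scn2a1* (-0.46 ± 0.14, adjusted p = 0.0188) were lower. The 40 channel genes and these partners were chosen with earlier results of the same cells known.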

How the data were processed

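The authors deposited unnormalized UMI counts per gene and well for 10 plates of 96 wells and, for the cells that passed their quality control, cluster numbers that their methods derive from the expression of all cells together. The submitters' processing notes name Trimmomatic 0.36, STAR 2.5.3a and GRCm38.p5, and how UMIs were counted, with which annotation, is not given in the sources used here. Spike-in counts and the list of well barcodes were not used here. The methods and the labels name different sequencers. Counts were read as deposited, a gene being detected at 1 UMI, and shares have exact Clopper-Pearson intervals at 95%. Intervals and floors of 3 counts cover counting error only, and with 3′ counts no levels were compared between genes. Since animals are not tied to plates, p-values measure the spread between plates.

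UMIs were summed per plate and cluster (at least 3 cells) and fitted with edgeR 4.0.16 under R 4.3.3 (TMM, filterByExpr on the cluster, robust quasi-likelihood F tests, plate as an additive block, Benjamini-Hochberg over all genes of a contrast). DESeq2 1.42.0, which the methods name, was an alternative. The fits were tested on simulated data. Python 3.11.15, pandas 2.3.3 and scipy 1.17.1 gave shares and sums, and matplotlib 3.10.9 the figures. Positions are from GENCODE vM21 and promoters from RefSeq, both on GRCm38. Named genes were those past an adjusted p of 0.05 among the clusters or in the magnocellular contrast, the gene with the largest change in each cluster and pair, and a list with known roles (*Scn7a*, *Hcn2*, *Hcn3*, *Hcn4*, *Cacna1g*, *Cacna1h*, *Cacna1i*, *Trpv1*, *Trpv2*, *Trpv4*, *Trpm4*, *Trpm5*, *Trpc4* and *Trpc5*), and other members are named after their values were seen, to describe their families. The members and lists were chosen with earlier results of these data known. Alternatives covered the test, normalization, filter, block, size of sums, depth, plates and the clusters compared. Some channel genes are counted in the totals but not reported here.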

Additional observations from a re-analysis of the deposited data

Results flagged for a closer look

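In 3 of 31 sets of plate values for a gene and cluster, the highest plate stood far from the rest (Dixon's test at the 95% level). This test flags about 5% of sets by chance only where values are normally distributed, which was not checked for these sums. *Trpc6* in cluster 14 had 65.5 CPM on plate Q7, a sum of 3 cells, where the next of 8 plates had 16.1. *Trpm3* in cluster 14 had 82.8 CPM on plate JM5, a sum of 6 cells, where the next of 8 plates had 29.9. *Trpm4* in cluster 1 had 60.9 CPM on plate JM8, a sum of 7 cells, where the next of 10 plates had 40.1.

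Wells outside the study's table of cells also held channel UMIs. The 162 such wells with at least 3000 UMIs had a median of 66 UMIs of the 57 genes and of 9 genes detected, against 244.5 and 15 in the 706 cells and a mean of 0.272 UMIs in the 92 wells with fewer.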

How the results depend on the processing

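Of 751 alternative values for the called differences, 615 kept their direction and side of the threshold, 132 lost the call and 4 reversed: *Trpc4* (-0.996) and *Cacna1i* (-1.24) in cluster 1 and *Trpm3* in cluster 14 (-0.18) against the sum of the others, and *Cacnb3* in cluster 7 (-0.043) with sums of at least 5 cells. The causes were not tested. Differences among clusters numbered 15, 2 on the Q plates alone and 9 to 16 with 1 plate left out, the lowest without AL5. In the magnocellular contrast 2 genes were higher (1 on the Q plates alone, 2 with any plate left out) and 2 lower: 7 with DESeq2, 1 with cells thinned, 1 on the AL and JM plates alone, 1 on the Q plates alone, 1 with cluster 12 counted with clusters 1 to 4, and 1 to 2 with 1 plate left out (1 without JM8). Calls of single clusters as higher (27) numbered 49 without the plate term that is the replicate block, 13 with sums of at least 5 cells, 16 thinned, 13 against the sum of the others and 20 to 27 with 1 plate left out. Calls as lower (5) numbered 32 with DESeq2, 10 without the block, 3 thinned, 20 against the sum and 4 to 7 with 1 plate left out. Calls between clusters sharing a peptide (7) numbered 23 with DESeq2, 12 with no filter, 11 without the block, 3 on the AL and JM plates and 5 to 8 with 1 plate left out.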
